A study of Homo sapiens with 12 samples.

Results

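Transcripts of 10 receptors for neurotrophic factors were followed in human motor neuron cultures that received the pesticide cis-chlordane. The receptors were chosen by name, as rows of a table of 28278 gene symbols, and are NTRK2, NTRK3, NGFR, RET, GFRA1, GFRA2, CNTFR, LIFR, IL6ST and MET. All 10 were present in the table and passed the filter on low counts in every comparison, with between 100 (NTRK2) and 43188 (NGFR) reads per library. The line used was WA09-Islet1-GFP, of human embryonic stem cells with a wild-type genotype label, in which GFP is made by cells that express Islet1, a transcription factor of motor neurons. After differentiation and a thaw, cultures were given cis-chlordane, labelled as 10 µM although the study's methods state a higher dose, or DMSO as solvent control. After 16 hours the cells were separated by their GFP signal with a cell sorter. This gave 4 groups of 3 libraries, which were control GFP-positive, treated GFP-positive, control GFP-negative and treated GFP-negative cells. The medium of all groups is listed with BDNF, GDNF and CNTF (spelled CTNF in the study's methods), so every library came from cells supplied with ligands of some of these receptors. A replicate is an independent thaw of cells of a single line, so p-values measure the spread between thaws and not between donors. Library totals ran from 23414935 to 38347050 reads, with a median of 31553596. The smallest, control GFP-negative replicate 3, also had the highest LIFR, IL6ST and IL6R of its group, and those of their values that rest on it are given with and without it.

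Neurotrophic factors are secreted proteins that keep neurons alive and support their axons, and motor neurons depend on several families of them. BDNF and neurotrophin-3 act through the receptor tyrosine kinases TrkB (NTRK2) and TrkC (NTRK3), while NGFR encodes p75, a receptor without kinase activity that binds all neurotrophins and their precursors. GDNF and neurturin bind GFRA1 and GFRA2, which are anchored to the membrane by a lipid and pass the signal on through the kinase RET. CNTF binds CNTFR, which assembles with LIFR and with gp130 (IL6ST), the shared signalling chain of the interleukin-6 family. MET is the receptor of hepatocyte growth factor, a survival and outgrowth factor for subsets of motor neurons.

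The sort was checked with the transcript of its reporter gene. ISL1 was at 66.1, 62.3 and 68.6 CPM (reads of a gene scaled to a common library size) in control GFP-positive libraries, at 2.5, 2.41 and 2.8 CPM in control GFP-negative libraries, at 8.01, 15.3 and 12.6 CPM in treated GFP-positive libraries and at 0.388, 0.691 and 0.566 CPM in treated GFP-negative libraries. It was thus higher in GFP-positive cells under either treatment, and lower in treated than in control cells of either fraction. In GFP-positive cells, which the gate selects by the reporter of this gene, its log2 fold change was -2.38 (SE 0.20, adjusted p 6e-12), and whether the gate held the same cells in treated and control cultures was not tested. In bulk libraries, fewer cells of a type and less RNA per cell cannot be told apart.

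Marker genes of motor neurons were also lower after treatment. The summed level of 10 motor neuron markers, ISL1 among them, was 2316 to 2899 CPM in control and 777 to 1141 CPM in treated GFP-positive libraries, with 9 of 10 lower after treatment. In GFP-negative libraries that sum was 424 to 461 CPM in controls and 159 to 198 CPM after treatment, with 7 of 10 lower. Markers of cycling cells summed to 832 to 897 CPM in control GFP-negative libraries and to 251 to 307 CPM in treated ones, with 8 of 8 lower, and to 112 to 153 and 63.5 to 82.9 CPM in GFP-positive libraries. Neural progenitor markers were higher in the GFP-negative fraction, at 6138 to 8102 CPM in controls and 7319 to 8368 CPM after treatment against 3240 to 3573 and 2531 to 3350 CPM in GFP-positive libraries. Most of that sum was VIM and NES, and in GFP-negative cells 6 of the 9 tested were lower after treatment and 1 was higher (median -1.21), with SOX1 going from a mean of 70.1 to 24.2 CPM and VIM from 3862 to 6424 CPM. Fibroblast and mesenchyme markers summed to 761 to 886 CPM in control GFP-negative, 469 to 761 CPM in treated GFP-negative, 261 to 326 CPM in control GFP-positive and 50.6 to 82.1 CPM in treated GFP-positive libraries, mostly as COL1A1 and COL1A2. General neuron markers had lower treated sums (13670 to 18218 against 25001 to 27101 CPM in GFP-positive libraries). In GFP-negative libraries their sums were 5907 to 6297 CPM after treatment against 9731 to 10437 CPM in controls. Of these 10 markers, 7 were lower and 2 higher in GFP-positive cells, and 8 lower and 2 higher in GFP-negative cells. Neural crest markers had higher treated sums in GFP-positive libraries (69.4 to 86.9 against 15.5 to 19.9 CPM), where of 2 tested 1 was higher and 1 lower. Interneuron markers summed to 48 to 54 CPM in control and 12.5 to 15.2 CPM in treated GFP-negative libraries (6 of 10 tested lower), and to 10.3 to 11 and 3.72 to 4.16 CPM in GFP-positive libraries. Astroglia markers summed to 258 to 334 CPM in control and 129 to 188 CPM in treated GFP-negative libraries, and to 35.5 to 53.9 and 39.9 to 43.3 CPM in GFP-positive libraries. In the GFP-negative sum FABP7 went from a mean of 170 to 49 CPM. Of 8 astroglia markers tested there, 2 were lower and 1 was higher after treatment (median 0.63). In GFP-positive cells 3 of 5 tested were lower and 2 higher (median -0.60). Epithelial markers summed to 706 to 976 and 963 to 1201 CPM in control and treated GFP-negative libraries, and pluripotent cell markers, through LIN28A and DPPA4, to 220 to 258 and 112 to 154 CPM. In control and treated GFP-positive libraries the epithelial sums were 165 to 218 and 150 to 187 CPM and the pluripotent sums 155 to 171 and 49.3 to 60.7 CPM. Most of the epithelial sum there was KRT8, which went from a mean of 154 to 138 CPM. Of the 6 epithelial markers, 3 were higher and 0 lower after treatment in GFP-positive cells (median 1.17). In GFP-negative cells 2 were higher and 0 lower (median 0.52). POU5F1 and TDGF1 were at 0 counts in all 12 libraries, and the glial AQP4 and the Schwann cell factor SOX10 stayed between 0 and 0.185 CPM. The part of the makeup of the fractions in the receptor values below was not tested.

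Treatment moved more receptors down than up in both fractions. A gene is said to differ below where its edgeR adjusted p was under 0.05. In GFP-positive cells 6 of the 10 receptors were lower after treatment (NTRK3, NGFR, RET, GFRA1, GFRA2 and MET), where 24.4% of the 15333 genes tested were lower, and 1 was higher (IL6ST), where 26.5% were higher. With a fold change of at least 2 as a further condition, 4 were lower (11.2% of all genes) and 1 was higher (12.8%). There was no overlap of treated with control libraries for 7 receptors, against 57.5% of all genes. In GFP-negative cells 6 of the 10 were again lower (NTRK2, NTRK3, NGFR, RET, GFRA1 and GFRA2), where 16.2% of the 15513 genes tested were lower, and IL6ST was again the 1 that was higher (15.3%). At a fold change of at least 2 the counts were 5 lower (9.75%) and 1 higher (8.59%), and 8 receptors did not overlap between groups (46.6%). The median log2 fold change of the 10 receptors was -0.76 in GFP-positive and -1.08 in GFP-negative cells, beside medians of 0.03 and -0.01 over all genes tested. The shares of receptors that were lower were therefore above the background in both fractions.

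**Figure D1:**
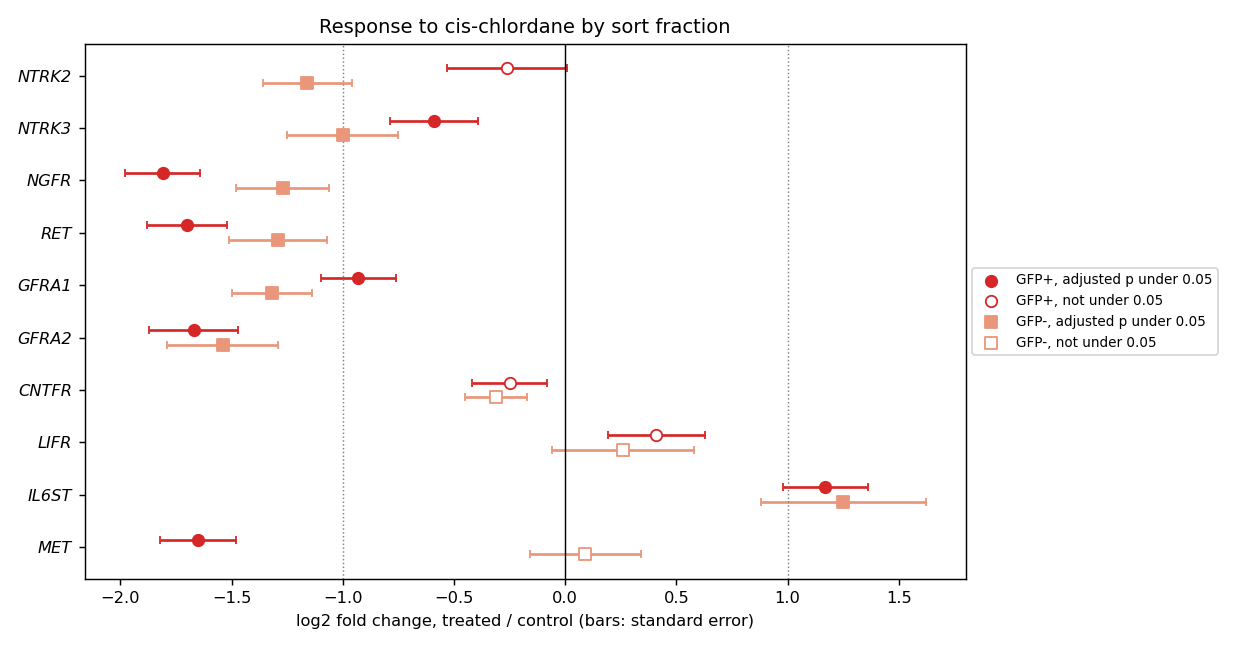
Change of each receptor with cis-chlordane in GFP-positive cells (circles) and GFP-negative cells (squares). The x axis is the log2 fold change of treated over control libraries, bars are standard errors of the fit, filled symbols have an adjusted p under 0.05 and dotted lines mark a 2-fold change. NGFR, RET, GFRA1 and GFRA2 lie left of 0 in both fractions, IL6ST lies right of 0 in both, and MET lies at -1.65 in GFP-positive and 0.09 in GFP-negative cells.

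The receptors differed widely in abundance. To compare genes, CPM was divided by the length of each gene's MANE Select transcript, which is approximate because the counts pool all isoforms. Per kb of transcript, control GFP-positive cells held NGFR at 323, CNTFR at 233 and RET at 59 CPM per kb, followed by MET (24.6), GFRA1 (15.1), GFRA2 (10.2) and IL6ST (2.65). The 3 lowest were LIFR (0.888), NTRK3 (0.728) and NTRK2 (0.523), and LIFR and NTRK3 overlapped between libraries. Thus p75 and the binding chain for CNTF were far more abundant than the Trk kinases or the signalling chains that CNTFR joins. Control GFP-negative cells had the same 2 leaders, NGFR at 189 and CNTFR at 131 CPM per kb, with GFRA1 (11.6) and RET (9.81) next and not separated. MET stood at 1.92 CPM per kb there, overlapping LIFR at 1.3.

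After treatment CNTFR led the order in GFP-positive cells, at 187 CPM per kb, above NGFR at 88 and RET at 17.3. GFRA1 (7.58), MET (7.46) and IL6ST (5.66) followed with overlapping libraries, then GFRA2 (3.07), LIFR (1.12), and NTRK3 (0.46) and NTRK2 (0.416), which overlapped. In treated GFP-negative cells CNTFR (108) and NGFR (79.2) overlapped, and IL6ST came next at 7.11 CPM per kb, above GFRA1 (4.72) and RET (4.06). MET (2.07), LIFR (1.57), GFRA2 (1.5) and NTRK2 (1.25) formed a run of overlapping neighbours, and NTRK3 was lowest at 0.385. The gp130 chain thus went from rank 7 to rank 6 in GFP-positive cells, passing GFRA2, which fell. In GFP-negative cells it went from rank 6, where it overlapped GFRA2 and NTRK2, to rank 3. NGFR was below CNTFR in treated GFP-positive cells, whereas in treated GFP-negative cells their order was not separated.

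**Figure D2:**
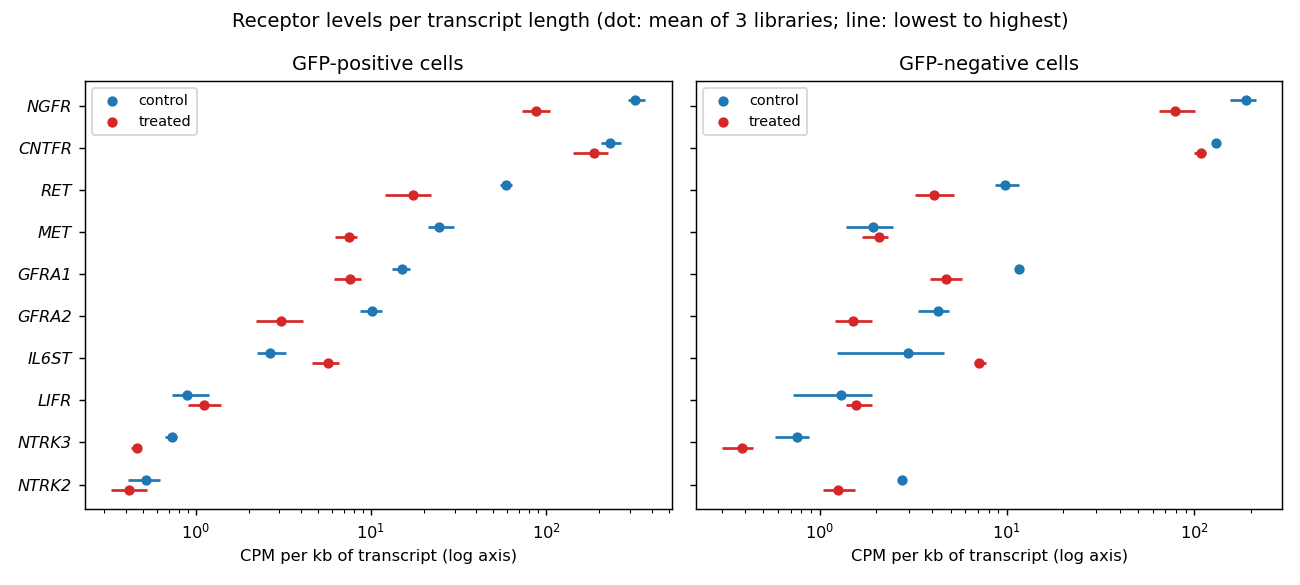
Receptor levels per transcript length, in CPM per kb on a log axis, for GFP-positive (left) and GFP-negative cells (right), with control in blue and treated in red. Dots are means of 3 libraries and lines run from the lowest to the highest library. In control GFP-positive cells the levels run from 0.523 for NTRK2 to 323 for NGFR.

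NTRK2, the BDNF receptor, was mainly a transcript of the GFP-negative fraction. It was at 4.62, 3.53 and 5.44 CPM in control GFP-positive libraries and at 23.1, 25.2 and 23.2 CPM in control GFP-negative libraries, a difference of -2.50 on the log2 scale (GFP-positive minus GFP-negative, SE 0.22, adjusted p 1.5e-05). In treated cells it was at 3.36, 2.86 and 4.58 CPM in GFP-positive and at 8.98, 13.4 and 10.2 CPM in GFP-negative libraries (-1.57, SE 0.25, adjusted p 0.00028). The fractions did not overlap under either treatment. With treatment NTRK2 changed by -0.26 in GFP-positive cells (SE 0.27, adjusted p 0.44), where treated and control libraries overlapped, and by -1.16 in GFP-negative cells (SE 0.20, adjusted p 0.0024), where they did not. The difference between these responses did not pass the test (0.81, SE 0.32, adjusted p 0.21). The counts do not separate full-length from truncated TrkB, which lacks the kinase.

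NTRK3, the receptor of neurotrophin-3, overlapped between the fractions under either treatment. Control libraries held 13.4, 15.6 and 14.7 CPM in GFP-positive and 11.6, 17.5 and 16.5 CPM in GFP-negative cells. Treated libraries held 9.6, 8.5 and 9.53 CPM in GFP-positive and 6.04, 8.83 and 8.25 CPM in GFP-negative cells, below every control library of the same fraction. The fall was -0.59 in GFP-positive cells (SE 0.20, adjusted p 0.013) and -1.0 in GFP-negative cells, just short of 2-fold (SE 0.25, adjusted p 0.013). These calls were the least stable among the receptors that fell. Without control replicate 2 the adjusted p was 0.053 in GFP-positive and 0.071 in GFP-negative cells, and without treated replicate 1 it was 0.078 in GFP-negative cells. NTRK3 shares its locus with an antisense gene, and the strand setting of the counting is not given in the sources used here.

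NGFR, encoding p75, had the highest level of the 10 in control cells of either fraction, and in GFP-positive cells fell by a factor close to those of RET, GFRA2 and MET. Its level was 1053, 1251 and 999 CPM in control and 292, 358 and 249 CPM in treated GFP-positive libraries. GFP-negative libraries held 668, 727 and 532 CPM in controls and 243, 345 and 222 CPM after treatment. The change was -1.81 in GFP-positive (SE 0.17, adjusted p 4.8e-11) and -1.27 in GFP-negative cells (SE 0.21, adjusted p 0.0016), with no overlap in either fraction. In controls NGFR was higher in the GFP-positive fraction by 0.67 (SE 0.16, adjusted p 0.0065), whereas in treated cells the fractions overlapped (0.17, SE 0.19, adjusted p 0.49). The responses of the fractions differed by -0.63 (SE 0.27, adjusted p 0.25), and by -0.62 with an adjusted p of 0.036 when GFP-positive and GFP-negative libraries of one treatment and replicate number were paired.

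RET, the signalling kinase of the GDNF receptor, marked the GFP-positive fraction. It was at 326, 360 and 307 CPM in control GFP-positive and 48.6, 65.1 and 51.5 CPM in control GFP-negative libraries, a difference of 2.48 (SE 0.16, adjusted p 2.3e-06). After treatment the levels were 101, 123 and 68 CPM in GFP-positive and 20.8, 29.4 and 18.2 CPM in GFP-negative libraries, and the difference was 2.11 (SE 0.24, adjusted p 2e-05). The groups overlapped in none of these comparisons. RET fell by 1.70 on the log2 scale in GFP-positive (SE 0.18, adjusted p 7.7e-10) and by 1.29 in GFP-negative cells (SE 0.22, adjusted p 0.0022). The responses did not pass the test for a difference (-0.49, SE 0.30, adjusted p 0.44).

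The 2 binding chains that present ligands to RET fell as well. GFRA1, the GDNF-binding chain, was at 152, 121 and 142 CPM in control and 70.9, 80.6 and 56.7 CPM in treated GFP-positive libraries (-0.93, SE 0.17, adjusted p 1.9e-05). In the GFP-negative fraction it was at 107, 111 and 102 CPM in controls and 41.4, 52.8 and 35.4 CPM after treatment (-1.32, SE 0.18, adjusted p 0.00069). All treated libraries were below all controls of their fraction. GFRA1 did not differ between fractions in controls by the test (0.27, SE 0.14, adjusted p 0.14), although their libraries did not overlap, and was higher in the GFP-positive fraction after treatment (0.70, SE 0.19, adjusted p 0.0091).

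GFRA2 (hg38, chr8:21690398-21812357), the neurturin-binding chain, was less abundant than GFRA1 per kb in every group. It was at 52.4, 57.4 and 43.4 CPM in control and 14.5, 20.5 and 11 CPM in treated GFP-positive libraries (-1.67, SE 0.20, adjusted p 1.8e-08). GFP-negative libraries held 24.6, 22.8 and 16.8 CPM in controls and 6.86, 9.49 and 6.05 CPM after treatment (-1.54, SE 0.25, adjusted p 0.0015). Like RET, it was higher in the GFP-positive fraction in controls (1.15, SE 0.19, adjusted p 0.00087) and after treatment (1.06, SE 0.26, adjusted p 0.0049). RET, GFRA1 and GFRA2 thus all fell in both fractions, and each fell in all fits that left out 1 library.

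CNTFR, which binds CNTF, was abundant in all groups, and its change with treatment did not pass the test in either fraction. Its level was 460, 543 and 421 CPM in control and 392, 462 and 289 CPM in treated GFP-positive libraries, which overlapped (-0.25, SE 0.17, adjusted p 0.22). GFP-negative libraries held 270, 273 and 258 CPM in controls and 204, 234 and 219 CPM after treatment, which did not overlap but did not pass the test (-0.31, SE 0.14, adjusted p 0.13). It was higher in GFP-positive cells by 0.72 in controls (SE 0.14, adjusted p 0.0026) and by 0.82 after treatment (SE 0.17, adjusted p 0.0017).

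LIFR, the signalling partner of gp130 for CNTF and LIF, was low and variable. It was at 7.83, 7.7 and 12.6 CPM in control and 11.3, 9.53 and 14.6 CPM in treated GFP-positive libraries (0.41, SE 0.22, adjusted p 0.13). In GFP-negative libraries it was at 7.59, 13.3 and 20.2 CPM in controls and 14.7, 20.1 and 15 CPM after treatment (0.26, SE 0.32, adjusted p 0.57). The groups overlapped in both fractions, and without control GFP-positive replicate 3 the change in GFP-positive cells was 0.67 with an adjusted p of 0.026. In GFP-negative cells it was 0.65 without control replicate 3 and -0.02 without control replicate 1. LIFR was lower in the GFP-positive fraction by 0.66 in controls and 0.47 after treatment on the log2 scale, with adjusted p of 0.16 and 0.09. In controls it was -0.95 (adjusted p 0.0058) without GFP-negative replicate 1 and -0.24 (adjusted p 0.5) without GFP-negative replicate 3, and after treatment -0.67 (adjusted p 0.023) without GFP-positive replicate 3. With libraries of one treatment and replicate number paired these differences were -0.59 (adjusted p 0.034) and -0.47 (adjusted p 0.024).

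IL6ST, encoding gp130, was the 1 receptor of the 10 that rose in both fractions. GFP-positive libraries held 20.1, 22.2 and 29.4 CPM in controls and 52.5, 41.8 and 59 CPM after treatment, without overlap (1.17, SE 0.19, adjusted p 3.3e-06). When the trend of counts with GC content was removed from each library, this rise was 0.64 and no longer reached 2-fold, though it still passed the test. GFP-negative libraries held 11.2, 27.2 and 41.5 CPM in controls and 62.5, 69.7 and 60.3 CPM after treatment (1.25, SE 0.37, adjusted p 0.029). The controls there ranged widely but stayed below the treated libraries. That call was lost without control replicate 2 (adjusted p 0.084), treated replicate 1 (0.096), treated replicate 2 (0.077) or treated replicate 3 (0.097), and the change was 0.89 without control replicate 1 and 1.72 without control replicate 3. Between fractions the IL6ST difference did not pass the test in controls (-0.27, SE 0.39, adjusted p 0.61) or after treatment (-0.31, SE 0.17, adjusted p 0.15). In controls its difference was -0.64 with an adjusted p of 0.024 without GFP-negative replicate 1, and 0.23 without GFP-negative replicate 3.

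MET, whose ligand is hepatocyte growth factor, showed the largest difference between the fractions in controls among the 10. After treatment the difference of RET was larger (2.11 against 1.87 on the log2 scale). MET was also the one receptor whose response differed between the fractions. It was at 156, 145 and 202 CPM in control GFP-positive and 9.39, 13.1 and 16.7 CPM in control GFP-negative libraries, 11.9-fold higher in the former (3.57, SE 0.25, adjusted p 3.5e-06). Treated libraries held 42.7, 53.4 and 56.6 CPM in GFP-positive and 15.9, 14.9 and 11.5 CPM in GFP-negative cells, still 3.66-fold higher in the former (1.87, SE 0.19, adjusted p 8.1e-06). The fractions overlapped under neither treatment. In GFP-positive cells MET fell by 1.65 on the log2 scale (SE 0.17, adjusted p 6.5e-10) with all treated libraries below all controls, while in GFP-negative cells the groups overlapped (0.09, SE 0.25, adjusted p 0.81). The responses differed by -1.83 (SE 0.30, adjusted p 0.0056), where 2.19% of the 16226 genes tested differed in response, and this was the only 1 of the 10 receptors that did so in the fit without pairing. Without any 1 library this difference lay between -2.04 and -1.56 and kept an adjusted p under 0.05.

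**Figure D3:**
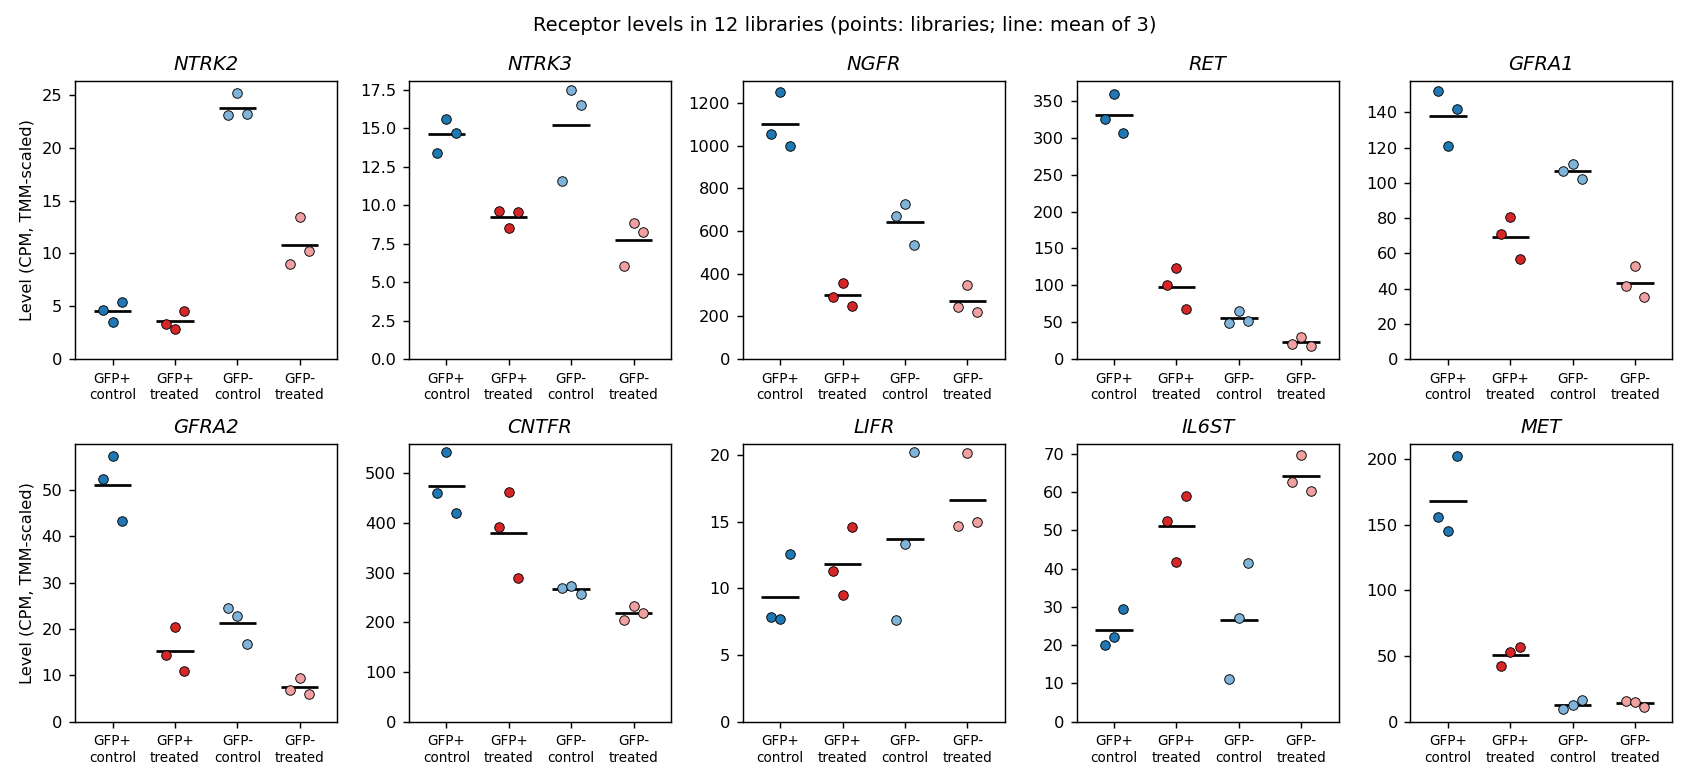
Level of each receptor in the 12 libraries, in CPM, with a separate y axis for each gene that starts at 0. Points are libraries, lines are means of 3, and groups run from control and treated GFP-positive to control and treated GFP-negative cells. MET falls from a mean of 168 to 50.9 CPM in GFP-positive cells and is at 13.1 and 14.1 CPM in GFP-negative cells, while NGFR and RET fall in both.

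The fractions differed for 6 of the 10 receptors under either treatment. In controls 5 were higher in the GFP-positive fraction (NGFR, RET, GFRA2, CNTFR and MET), where 17.1% of all genes were higher, and NTRK2 was lower, where 23.1% were lower. After treatment 5 were higher (RET, GFRA1, GFRA2, CNTFR and MET) and NTRK2 was lower, where 24.9% of all genes were higher and 24.9% lower. RET, GFRA2, CNTFR and MET were on the GFP-positive side in both comparisons. With libraries of one replicate number paired, LIFR was also lower in the GFP-positive fraction, so that 2 receptors in place of 1 were lower in controls and after treatment. With GC trends removed, GFRA1 in controls (0.40, adjusted p 0.022) and NGFR after treatment (0.54, adjusted p 0.029) were also higher in the GFP-positive fraction, and LIFR (-0.74, adjusted p 0.01) and IL6ST (-0.58, adjusted p 0.0093) were lower there after treatment. The sort comparisons share libraries with the treatment comparisons, so they are not independent of them.

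**Figure D4:**
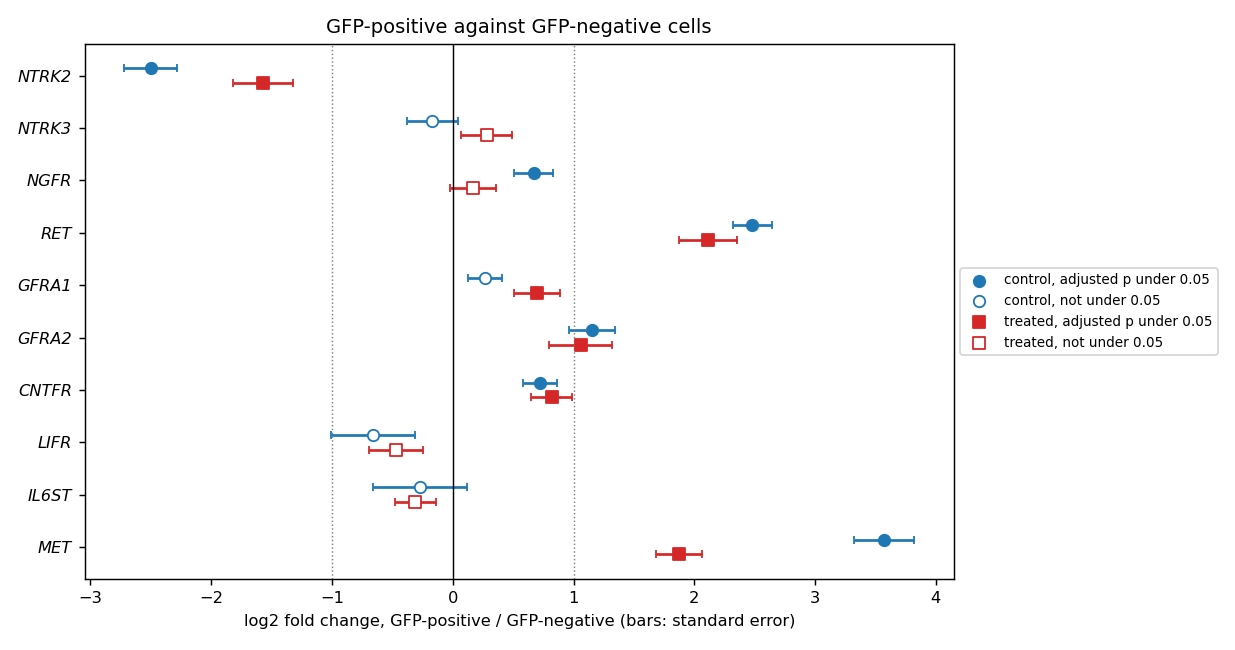
Difference of each receptor between GFP-positive and GFP-negative cells in control (circles) and treated cultures (squares). The x axis is the log2 fold change of GFP-positive over GFP-negative libraries, bars are standard errors, filled symbols have an adjusted p under 0.05 and dotted lines mark a 2-fold difference. MET lies farthest right in controls, at 3.57, and NTRK2 farthest left, at -2.50.

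Genes around the receptors were followed in 6 lists. Their counts stand beside shares over all genes tested of 24.4% lower and 26.5% higher in GFP-positive cells. In GFP-negative cells these shares were 16.2% lower and 15.3% higher. Whether a list departed from them was not tested. Other receptors and sorting partners of the same families moved down more often than up, with 10 of 19 tested lower and 3 higher in GFP-positive cells (median -0.50) and 7 lower and 2 higher in GFP-negative cells (median -0.59). SLITRK3, a synaptic adhesion protein of a family with Trk-like ends, fell by 1.95 in GFP-positive and 2.66 in GFP-negative cells. The sorting receptor SORCS1 rose by 1.28 in GFP-positive and 1.21 in GFP-negative cells.

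Binding partners of gp130 split in direction. IL6R, the binding chain for interleukin-6, rose from 0.559, 0.376 and 0.224 to 5.31, 2.89 and 7.31 CPM in GFP-positive cells (3.82, SE 0.39, adjusted p 3.6e-10). OSMR, the oncostatin M chain, rose by 2.84 in GFP-positive cells (adjusted p 1.9e-06), at low levels with means of 0.238 and 1.65 CPM. In GFP-negative cells it rose by 3.04 (adjusted p 4.8e-05), from a mean of 2.38 to 19.9 CPM. IL11RA, the interleukin-11 chain, fell by 1.37 (adjusted p 2.8e-06) and 1.43 (adjusted p 0.0024). Control GFP-negative replicate 3, which had the highest IL6ST and LIFR of its group, also had 18.7 CPM of IL6R against 2.99 and 1.91 in the other controls, and the change of IL6R in that fraction did not pass the test (-0.42, SE 0.70, adjusted p 0.68). Without that library IL6R was higher after treatment in GFP-negative cells too (1.26, adjusted p 0.0098).

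Ligands moved up more often than down. In GFP-positive cells 8 of 17 tested were higher and 3 lower (median 0.57), and in GFP-negative cells 5 of 15 were higher and 2 lower (median 0.59). BDNF, the NTRK2 ligand, rose by 0.92 (SE 0.27, adjusted p 0.0042) in GFP-positive and 1.85 (SE 0.30, adjusted p 0.0017) in GFP-negative cells. NTF3, the NTRK3 ligand, fell from 3.21, 2.92 and 3.13 to 0.27, 0.286 and 0.159 CPM in GFP-positive cells (-3.62, SE 0.40, adjusted p 2.7e-09) and by 2.72 in GFP-negative cells. GDNF, the GFRA1 ligand, was at 2.5, 2.29 and 0.704 CPM in control and 0.09, 0.258 and 0.106 CPM in treated GFP-positive libraries (-3.50, SE 0.54, adjusted p 1.2e-06), and in GFP-negative libraries its counts were too low for the test. IL11 rose by 2.24 and 1.82 and LIF by 1.12 and 1.95 in GFP-positive and GFP-negative cells, with overlapping LIF libraries in the former. The call of LIF was lost in GFP-positive cells in 4 of the 6 fits that left out 1 library (0.60, adjusted p 0.34, without treated replicate 3), and in GFP-negative cells without control replicate 2 (adjusted p 0.051), while without treated replicate 3 its change there was 1.05. CNTF itself had at most 7 reads in any library and was not tested.

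**Figure D5:**
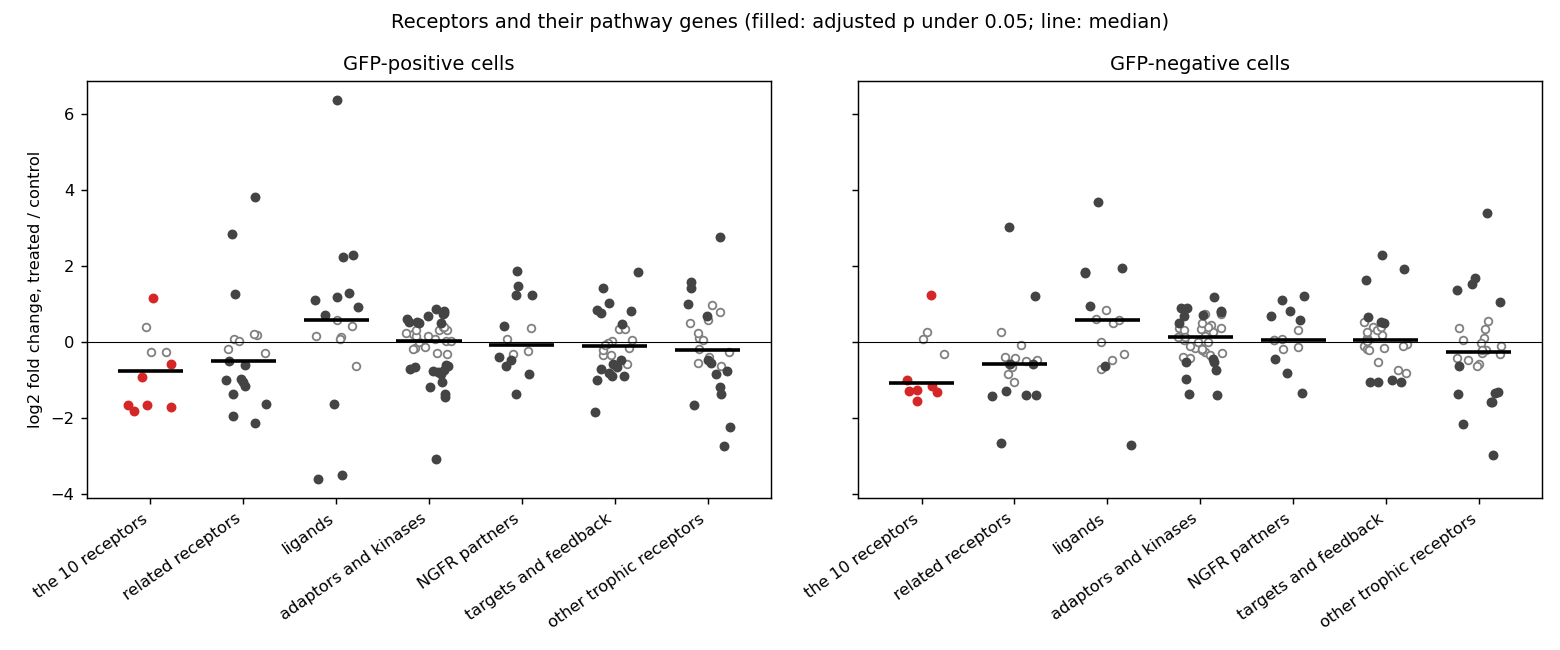
Change with cis-chlordane of the 10 receptors (red) and of 6 lists of related genes in GFP-positive (left) and GFP-negative cells (right), as log2 fold change of treated over control. Each point is a gene, filled points have an adjusted p under 0.05 and lines are medians of the genes tested. The receptor medians are -0.76 and -1.08, and those of the ligands are 0.57 and 0.59.

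Adaptors and kinases downstream of the receptors had medians near 0 as a list. Of 41 tested, 10 were higher and 13 lower in GFP-positive cells (median 0.03), and 8 were higher and 7 lower in GFP-negative cells (median 0.13). SH2B2, a Trk adaptor, fell from a mean of 51.4 to 18 CPM in GFP-positive cells (-1.45) and from 42.4 to 16.8 CPM in GFP-negative cells (-1.36). DOK4, an adaptor for RET, fell by 1.37 in GFP-positive and 0.98 in GFP-negative cells. GAB1, the docking protein of MET, fell by 1.06 and 1.39, and SHC4 rose by 0.83 and 1.19. In GFP-negative cells the call of GAB1 was lost without treated replicate 1 (adjusted p 0.063) or treated replicate 3 (0.078), and that of SHC4 without control replicate 2 (0.099) or any of the treated replicates (0.12, 0.065 and 0.081). Among partners of p75 and its processing enzymes, 5 of 14 were higher and 5 lower in GFP-positive cells and 5 higher and 3 lower in GFP-negative cells. RIPK2, a kinase that binds p75, rose by 1.87 and 1.10, and ADAM17, a protease that sheds p75, rose by 1.48 and 1.21. NDN, a p75-binding protein of postmitotic neurons, fell by 1.37 in GFP-positive and 0.81 in GFP-negative cells. RTN4R, the Nogo receptor that signals with p75, fell by 0.83 in GFP-positive (adjusted p 0.00072) and 1.35 in GFP-negative cells (adjusted p 0.0016), and these responses did not pass the test for a difference (0.43, adjusted p 0.53).

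Transcripts induced by these pathways, and their feedback inhibitors, did not share a direction. In GFP-positive cells 7 of 28 were higher and 9 lower (median -0.12), and in GFP-negative cells 6 were higher and 4 lower (median 0.05). DUSP5, an ERK phosphatase, rose by 1.86 and 1.93. The related factors ETV5 and ETV4 moved apart, with ETV5 higher by 1.43 and 1.63 and ETV4 lower by 1.85 and 1.06 in GFP-positive and GFP-negative cells. VGF, a secreted protein induced by neurotrophins, rose by 0.81 and 2.29, reaching means of 2078 and 2734 CPM. SPRY1, an inhibitor of receptor kinase signalling, fell by 1.06 in GFP-negative cells and changed by 0.04 (adjusted p 0.92) in GFP-positive cells.

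Other growth factor receptors gave a background of like genes. Of 26 tested in GFP-positive cells, 9 were lower and 5 higher (median -0.22), and of 28 in GFP-negative cells, 8 were lower and 5 higher (median -0.25). KDR, the main receptor of VEGF-A, rose from a mean of 1.29 to 8.34 CPM in GFP-positive and from 9.41 to 102 CPM in GFP-negative cells. ACVR1, a BMP receptor, rose by 1.58 and 1.69. FGFR2 fell by 2.24 and 2.97. FLT4 fell by 0.77 in GFP-positive (adjusted p 0.034) and 2.16 in GFP-negative cells (adjusted p 0.00048), the former a call lost without control replicate 1 (adjusted p 0.13), control replicate 3 (0.053), treated replicate 1 (0.069) or treated replicate 2 (0.14). PDGFRB, which is also in the fibroblast list, fell by 2.73 in GFP-positive and 1.35 in GFP-negative cells (adjusted p 0.013), the latter a call lost without control replicate 2 (adjusted p 0.051) or treated replicate 1 (0.07).

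For each receptor the genes with the most similar pattern over the 12 libraries were found among 13812 genes, by the root mean square difference of centred log2 CPM. The smallest differences, 0.12, were those of SH2D3C and ADCY2 from CNTFR, and NGFR was followed most closely by GAREM2 (0.13) and IRX1 (0.15). NTRK3 was nearest to SRCAP (0.13) and TUB (0.15), GFRA1 to NLGN2 and CHRNA5 (both 0.15) and GFRA2 to FNDC5 and NRXN2 (both 0.18). RET was nearest to LZTS1 (0.20) and TMEM196 (0.27), IL6ST to ACAP2 (0.20) and UFL1 (0.21), and LIFR to RDX and UTRN (both 0.21). The cell cycle kinases PLK4 (0.22) and CDK2 (0.23) were nearest to NTRK2, which like the cycling markers was highest in control GFP-negative libraries. MET had the least similar neighbours, TG (0.42) and GRM7 (0.45). No other receptor of the 10 was among the 2 nearest genes of any of them.

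The receptor genes lie at separate loci. On hg38, NGFR spans chr17:49495293-49515008, RET chr10:43077064-43130351 and GFRA1 chr10:116056925-116276803. NTRK2 spans chr9:84668375-85095751, NTRK3 chr15:87859751-88256791 and CNTFR chr9:34551432-34590140. LIFR spans chr5:38474668-38608354, IL6ST chr5:55935095-55995022 and MET chr7:116672196-116798377. Promoter sequences are shown for the receptor that rose in both fractions (IL6ST) and for the pair with the largest GFP-positive excess (MET and RET), as the 250 bases before the RefSeq start nearest the gene's 5′ end (GRCh38.p14). Capitals mark the GC box, GGGCGG or CCGCCC on the other strand, and the windows are IL6ST chr5:55994964-55995213 on the minus strand, MET chr7:116671946-116672195 and RET chr10:43076819-43077068 on the plus strand.
IL6ST: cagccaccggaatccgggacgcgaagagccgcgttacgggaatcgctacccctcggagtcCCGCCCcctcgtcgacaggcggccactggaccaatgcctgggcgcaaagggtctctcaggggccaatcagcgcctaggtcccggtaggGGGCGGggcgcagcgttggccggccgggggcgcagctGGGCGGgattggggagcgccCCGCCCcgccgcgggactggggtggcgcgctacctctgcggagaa
MET: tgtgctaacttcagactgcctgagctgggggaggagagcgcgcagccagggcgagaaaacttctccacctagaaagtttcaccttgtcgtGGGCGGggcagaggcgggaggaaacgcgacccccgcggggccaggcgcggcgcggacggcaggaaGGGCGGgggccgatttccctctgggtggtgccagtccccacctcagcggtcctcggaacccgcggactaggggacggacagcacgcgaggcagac
RET: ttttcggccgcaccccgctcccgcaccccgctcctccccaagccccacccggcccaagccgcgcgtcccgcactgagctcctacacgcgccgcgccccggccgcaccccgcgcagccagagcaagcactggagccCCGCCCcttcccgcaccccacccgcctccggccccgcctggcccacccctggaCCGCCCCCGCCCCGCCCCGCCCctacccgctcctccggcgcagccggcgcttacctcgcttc
These hold 4, 2 and 5 GC boxes, of which 4 in RET adjoin or overlap, so that the gene that rose and those that fell share the motif. Over windows of 300 bases that also cover 50 bases after the start, 17 windows of 8 of the receptors were searched on both strands. NGFR had no window, and GFRA2 was left out of this search. Of the 17 windows, 10 held a GC box, as did 45% of all 35116 windows. TTCNNNGAA, the core of a STAT site, was in 2 windows, both of LIFR, against 7.66% of all windows, and TAATTA, a core bound by homeodomain factors, was in 1 window of GFRA1 against 4.84%. TTGCATCA, an ATF4 element, TGACGTCA, the cAMP response element, and TGANTCA, the AP-1 site, were in 0 of the 17 windows, against 0.866%, 1.85% and 7.71% of all windows. A match describes the letters of the window and was not tested as a binding site.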

How the data were processed

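RNA-seq counts of 12 libraries in 4 groups of 3 were analysed. Per the labels and the study's methods, the authors joined lanes, aligned single-end, reverse-stranded reads with HISAT2 (hg38, with an Ensembl GRCh38 annotation whose release the methods name), and counted with featureCounts; the strand setting of featureCounts is not given in the sources used here. The deposited values are raw counts per gene symbol, 0 columns of libraries were unused, and totals of 23414935 to 38347050 reads per library limit the precision of genes with few reads. Treatment came from the treatment entry and column names, since the word untreated opens the titles of all libraries.

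Treated and control cells were compared within each sort fraction, and fractions within each treatment, with 6 libraries per fit (edgeR 4.0.16 in R 4.3.3, TMM scaling, filterByExpr with a minimum count of 10 and total of 15, quasi-likelihood test, Benjamini-Hochberg adjustment over all genes tested). The difference of responses was the interaction over all 12 libraries. Printed CPM are TMM-scaled over the 12 libraries, and genes were called at an adjusted p under 0.05. No exact permutation test is given, because 3 against 3 libraries cannot reach a p below 0.1. The receptors, lists and tests were chosen with earlier results of these data known. Genes of the lists are named where they had a fold change of at least 2, no overlap between groups and 1 CPM or more on average, with up to 2 per list, direction and fraction; ISL1, ligands of the medium, marker genes at 0 and genes whose responses differed are named besides, and fold changes or mean levels of these genes are given for both fractions where tested. OSMR in GFP-positive cells was added after its values were seen. Some genes that this rule picks are left out of the text.

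GFP-positive and GFP-negative libraries with one treatment carry the same replicate numbers, which were read as sorts of one thaw, although the labels do not state it, and were paired in an alternative fit. Across 16226 genes, deviations from their group means gave correlations of 0.281, 0.0849 and 0.214 for the pairs of control libraries and of 0.16, 0.204 and 0.356 for the treated ones, over genes that do not count as replicates. Alternatives were DESeq2 1.42.0, RLE scaling, no filter, library size alone, a replicate block, a filter of at least 10 counts in every library, all 12 libraries in one fit, removal of GC trends (chosen after seeing the data; loess span 0.5) and each library left out. Positions and lengths came from GENCODE 44, which is not the authors' annotation and matched 25763 of 28278 symbols; promoters came from RefSeq, and protein sequences were not used here. Simulated counts with known changes were used to test the fits. Figures were drawn with matplotlib 3.10.9.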

Additional observations from a re-analysis of the deposited data

Results flagged for a closer look

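The response to treatment differed between GFP-positive and GFP-negative cells, by the interaction term in edgeR, for 1 of the 10 receptors and 7 genes of the lists around them. By list, these were 1 of 19 related receptors tested, 1 of 18 ligands and 2 of 41 adaptors and kinases. The others were 0 of 14 partners of p75, 2 of 28 targets and feedback inhibitors and 1 of 28 other growth factor receptors. Over all 16226 genes tested 2.19% differed in response, and whether the lists departed from that share was not tested. For MET the GFP-positive response minus the GFP-negative response was -1.83 on the log2 scale (adjusted p 0.0056), as MET fell in GFP-positive cells and was at 0.09 (adjusted p 0.81) in GFP-negative cells. The adaptor SHC1, which links receptor kinases to RAS, fell from a mean of 264 to 111 CPM in GFP-positive cells and rose from 139 to 264 CPM in GFP-negative cells, a difference of -2.18 (adjusted p 4.8e-05). NRP1, a co-receptor for VEGF and semaphorins, went from a mean of 99.3 to 52.5 CPM in GFP-positive and from 32 to 83.1 CPM in GFP-negative cells (-2.30, adjusted p 6.7e-05). VGF rose in both fractions, with a response smaller by 1.57 in GFP-positive cells (-1.57, adjusted p 0.0043). The adaptor SH2B3 (-0.94, adjusted p 0.034) rose by 0.89 in GFP-negative cells and was at 0.03 (adjusted p 0.9) in GFP-positive cells. The RAS pathway inhibitor SPRED3 (-0.94, adjusted p 0.03) fell by 0.66 in GFP-positive cells and was at 0.19 (adjusted p 0.39) in GFP-negative cells. These calls of a difference were lost in 8 and 10 of the 12 fits that left out 1 library, with adjusted p of up to 0.15 for both, without treated GFP-positive replicate 3. GDNF fell in GFP-positive cells and had at most 11 reads in any GFP-negative library, with a difference of -4.68 (adjusted p 0.012) that rests on low counts and lost its call without control GFP-positive replicate 2 (adjusted p 0.051), treated GFP-positive replicate 1 (0.055) or treated GFP-positive replicate 3 (0.05). IL6R had a difference of 4.14 (adjusted p 0.035), which includes control GFP-negative replicate 3 at 18.7 CPM against 2.99 and 1.91 CPM in the other controls. Without that library it was 2.47 (adjusted p 0.019), and 8 of the 12 fits that left out 1 library lost the call, with control GFP-positive replicate 2 giving the highest adjusted p (0.14). The groups hold 3 libraries, too few for the test of single outlying libraries.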

How the results depend on the processing

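Of 212 counts recomputed under the alternatives, 193 stayed within 1.5 times the first value, and of 760 fold changes of the receptors, 710 kept their direction and their side of the threshold. In the changes of sign given below, neither value passed the test. With library size alone, receptors higher in GFP-negative cells went from 1 to 0, at any fold and at 2-fold (IL6ST 1.16, adjusted p 0.060), NTRK3 in GFP-positive cells was no longer called (-0.48, adjusted p 0.051), and the interaction reversed for GFRA2 (0.02), CNTFR (0.23) and IL6ST (0.11). That scaling moved the median of all genes from 0.03 to 0.14 in GFP-positive cells, from 0.05 to 0.22 between treated fractions and from -0.05 to 0.20 for the interaction, and the calls between treated fractions from 3832 higher and 3846 lower to 4933 and 3044. With GC trends removed, in GFP-positive cells CNTFR was at 0.12, LIFR at -0.10 and receptors higher at 2-fold went from 1 to 0, in GFP-negative cells MET was at -0.05, between treated fractions 3 receptors were lower in place of 1 (NTRK2, LIFR and IL6ST), and the interaction was 0.16 for CNTFR and -0.16 for LIFR. The CNTFR interaction, at -0.03, was also 0.03 with DESeq2 and with RLE scaling, and 0.13 with at least 10 counts in every library.

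With the replicate block, which pairs libraries of one replicate number between fractions, 2 receptors in place of 1 were lower in the GFP-positive fraction in controls and after treatment, through LIFR. For the interaction 2 in place of 1 differed with a replicate block within each treatment, through NGFR, while LIFR was at -0.01 with either block. The block changed no other call of a receptor. Treated and control libraries share only a number, and their deviations correlated at -0.17 to 0.276. Over all genes, the interaction gave 157 higher and 198 lower calls, against 171 and 145 with RLE scaling and 265 and 84 with library size alone, and 355 calls in all against 791 with DESeq2, 1264 with that block and as few as 141 without control GFP-positive replicate 2; the calls in GFP-negative cells went from 4887 to 2770 without treated replicate 1 and to 2892 without control replicate 2.

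Leaving out 1 library, receptors higher ranged from 1 to 2 in GFP-positive and from 0 to 1 in GFP-negative cells, there also at 2-fold, and receptors lower in the GFP-positive fraction from 1 to 3 in controls and from 1 to 2 after treatment. In GFP-negative cells LIFR ranged from -0.02 to 0.65 and MET from -0.10 to 0.30. Between fractions IL6ST ranged from -0.64 to 0.23 in controls and NGFR from -0.00 to 0.40 after treatment. The interaction ranged from -0.48 to 0.13 for GFRA2, from -0.19 to 0.30 for CNTFR, from -0.33 to 0.38 for LIFR and from -0.64 to 0.23 for IL6ST. The cause of these changes was not tested. CNTF and, in GFP-negative cells, GDNF had too few reads to be tested at this depth.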
